A study of Mus musculus with 6 samples.

Results

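Cholesterol synthesis was followed through 7 genes, 6 enzymes from the condensing step of the mevalonate pathway to the first sterol (Hmgcs1, Idi1, Fdps, Fdft1, Sqle and Lss) and Srebf2, which encodes the transcription factor that drives them. They were taken from the deposited gene table by name, and all 7 of the 7 were found among its 21135 genes. Each had a mean of at least 10 normalised reads, the level needed for testing, as did 17815 genes in all. RNA was measured in CD4 and CD8 double-negative stage 3 (DN3) thymocytes of C57BL/6 mice. The 3 wild-type libraries carry the intact NMe element, a distal Notch-bound enhancer of Myc, and the 3 mutant libraries come from mice homozygous for mutations of GATA sites 1 and 2 of NMe. Myc, the gene this enhancer serves, was 18041, 19223 and 20196 normalised reads in the wild type and 5562, 4612 and 6165 in the mutant, a 3.52-fold ratio of means (log2 change -1.82 ± 0.12, limma adjusted p = 4.22e-05). The age and sex of the mice are not stated in the labels, nor whether each library came from a separate animal, so each p-value speaks only of how these libraries spread.

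Cells build cholesterol from acetyl-CoA by way of mevalonate, the isoprenoid farnesyl diphosphate, squalene and lanosterol. When sterols in the endoplasmic reticulum run low, SCAP carries SREBP-2 to the Golgi, the site-1 and site-2 proteases cut it, and the freed fragment enters the nucleus and switches on the enzymes of the route. Dividing lymphocytes draw on this pathway for membranes. Sqle also shares chromosome 15 with Myc, so its level can be set against its pathway or against its position.

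The upstream sequences are shown as background, as SREBP-2 acts at its targets beside the CCAAT-binding factor NF-Y. Whether such sites bear on the RNA levels below was not tested. The RefSeq promoter table (GRCm38.p6) held 18 of 23 genes sought, the 22 synthesis enzymes and Srebf2, and 4 of the 7 members (Hmgcs1, Idi1, Lss and Srebf2). Each line gives 150 bases of the plus strand, 5′ to 3′, that end before the annotated transcript, with the matched letters in capitals.
Hmgcs1, chr13:119690201-119690350: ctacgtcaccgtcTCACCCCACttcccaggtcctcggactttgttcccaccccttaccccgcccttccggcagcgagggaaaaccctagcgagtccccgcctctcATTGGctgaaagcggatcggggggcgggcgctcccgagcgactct
Lss, chr10:76531438-76531587: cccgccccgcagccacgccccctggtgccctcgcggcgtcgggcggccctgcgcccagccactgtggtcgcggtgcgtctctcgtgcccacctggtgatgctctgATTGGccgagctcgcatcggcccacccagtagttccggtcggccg
Srebf2, chr15:82147031-82147180: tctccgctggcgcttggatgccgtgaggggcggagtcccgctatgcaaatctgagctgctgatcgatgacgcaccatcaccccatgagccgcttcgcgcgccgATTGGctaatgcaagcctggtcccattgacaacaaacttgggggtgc
Searched on both strands were a sterol regulatory element (TCACNCCAC), the CCAAT box (CCAAT, written ATTGG on the other strand) and the E-box that MYC binds (CACGTG), and no 2 matches in the printed windows overlap. In the Hmgcs1 line the sterol element starts 137 bases before the RefSeq transcript start and a CCAAT box 45 bases before it. The CCAAT box of Lss starts 62 bases before its start and that of Srebf2 135 bases before. Over the 250 bases before the start, a CCAAT box was present in 16 of the 18 pathway genes and in 37.5% of all 27025 genes of the table. The sterol element was present in 1 of the 18, Hmgcs1, against 1.22% of all genes, and the E-box in 3 (Hsd17b7, Sc5d and Dhcr7) against 6.86%. A match is a description of letters and not a measured binding site.

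Reads recovered from the deposited values and summed over the listed genes came to between 38.6 and 51.3 M per library. The DN3 label was checked against 10 identity genes (Il2ra, Ptcra, Rag1, Rag2, Notch1, Dtx1, Cd3e, Bcl11b, Tcf7 and Gata3). All 10 were listed, with a summed level of 280618 to 314560 normalised reads in the wild type and 364964 to 402469 in the mutant. By limma 5 of them rose, 1 fell and 4 did not pass (60% called, against 18.8% of all tested genes). Dtx1 rose 3.76-fold, Il2ra 1.8-fold, Gata3 1.55-fold, Notch1 1.45-fold and Cd3e 1.32-fold, and Rag1 fell 1.49-fold. The label thus covers populations whose identity genes differed between the genotypes. Of 5 erythroid genes listed, the sum was 7251 in wild type replicate 2, 38.3 in the lowest wild-type library and 73.9 to 103 in the mutant. Myeloid and dendritic markers summed to 1245 to 1792 in the wild type and 1335 to 2266 in the mutant, with C1qa, C1qb and Siglech not among the listed genes. Natural killer and innate lymphoid markers summed to 14296 to 17536 and to 19874 to 31796, with Ncr1 and Klrd1 not listed. B-cell markers summed to 18114 to 20803 and to 13184 to 15393 (Ms4a1 and Pax5 not listed), later-stage thymocyte markers to 4739 to 7167 and to 3762 to 4644, and thymic stroma markers to 8229.9 to 10057 and to 9991 to 13552 (Foxn1, Krt5, Krt8 and Pdgfra not listed). Their part in the results below was not tested.

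Of the 7 members, Sqle fell and 0 rose, and the other 6 did not pass the test (limma on log2(value + 1), adjusted over all tested genes). That is 14.3% of the members, where 18.8% of all tested genes were called, 10.9% lower and 7.94% higher. At an unadjusted p under 0.05 the members lower in the mutant were Sqle and Idi1, 2 in all, with 0 higher. No share of all tested genes at that unadjusted threshold is given. This count and the later ones at it are therefore not read as results about the lists. By adjusted p, edgeR called 0 members and DESeq2 called 1, Sqle. With every library rescaled to an equal total the calls over all genes were 1827 higher and 1647 lower, in place of 1414 and 1938. The median log2 change was -0.07 over the 7 members and 0.03 over all tested genes. In whole DN3 populations, fewer cells of a type and less RNA per cell cannot be told apart.

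**Figure D1:**
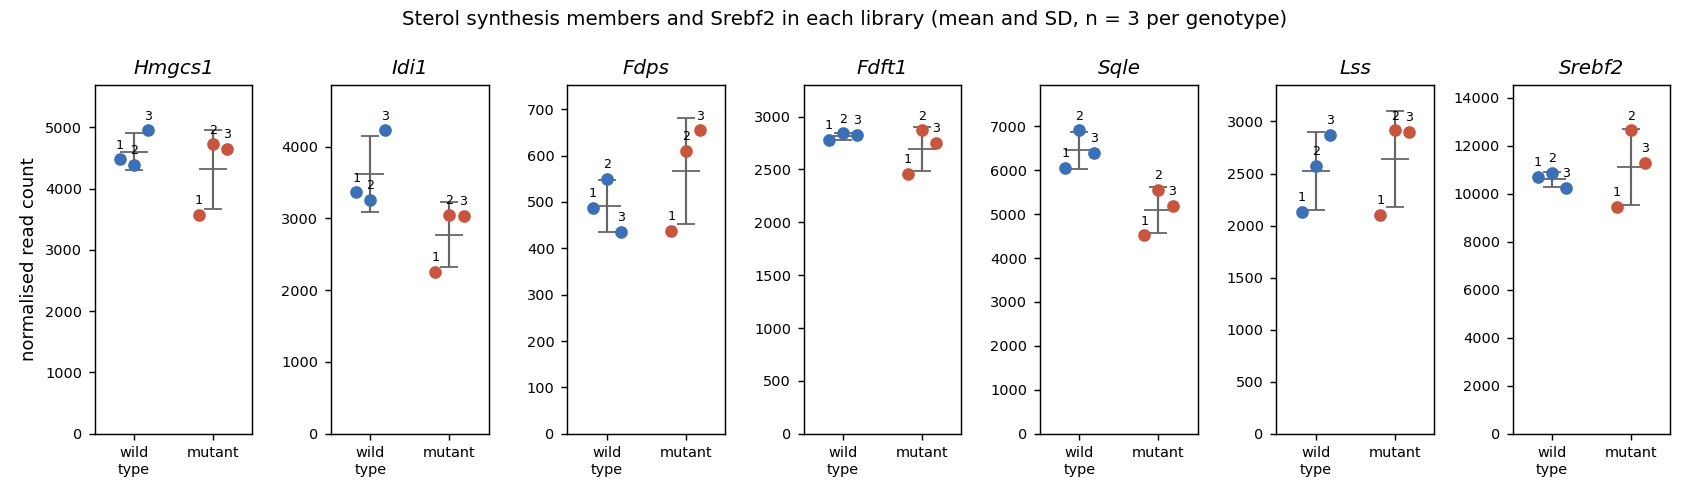
Normalised read count (vertical axis, from 0) of the 6 enzymes in pathway order and of Srebf2 in each library, with the replicate number beside each point and bars for the mean and SD of 3 libraries. For Sqle and Idi1 the 3 mutant points lie below the 3 wild-type points, and mutant replicate 1 is the lowest mutant point in all 7 panels.

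Hmgcs1 (ENSMUSG00000093930.2, chromosome 13, 119690379 to 119708260), the synthase that makes HMG-CoA, had 4476, 4381 and 4949 normalised reads in the wild type and 3578, 4721 and 4643 in the mutant. One mutant library was low and the other two lay within the wild-type range, so the genotypes overlapped. The log2 change was -0.10 ± 0.13 (standard error), and its 95% interval ran from -0.38 to 0.18 (limma adjusted p = 0.611).

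Idi1 (ENSMUSG00000058258.14, chromosome 13, 8885501 to 8892451) encodes the isomerase that interconverts the pair of isoprenoid building blocks. It had 3360, 3255 and 4224 normalised reads in the wild type and 2252, 3042 and 3029 in the mutant. Every mutant library lay below every wild-type library, as in 20.3% of all tested genes. The log2 change of -0.38 ± 0.15 (interval -0.72 to -0.05) was of the size of that of Sqle, but did not pass (limma adjusted p = 0.103, and 0.0722 to 0.284 over 17 alternatives).

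Fdps (ENSMUSG00000059743.12, chromosome 3, 89093588 to 89101959), the synthase of farnesyl diphosphate, had 488, 550 and 436 normalised reads in the wild type and 438, 609 and 654 in the mutant. The 2 highest values were mutant and the groups overlapped. The log2 change was 0.19 ± 0.19 (interval -0.22 to 0.61, limma adjusted p = 0.51). Fdps lies inside the annotated read-through gene Gm43738 on the same strand, and reads shared by the pair may not have been counted for Fdps.

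Fdft1 (ENSMUSG00000021273.10, chromosome 14, 63145150 to 63179578), squalene synthase, commits farnesyl diphosphate to sterols. It had 2775, 2841 and 2824 normalised reads in the wild type and 2458, 2868 and 2754 in the mutant. The wild-type libraries were the most even of any member, and mutant replicate 2 lay above all of them. The log2 change was -0.07 ± 0.10 (interval -0.30 to 0.17, limma adjusted p = 0.703). The end of Fdft1 overlaps that of Ctsb on the opposite strand, and the library kits do not record strand.

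Sqle (ENSMUSG00000022351.14, chromosome 15, 59315077 to 59331192) encodes squalene epoxidase, a rate-limiting enzyme of the pathway. It had 6059, 6905 and 6398 normalised reads in the wild type and 4516, 5547 and 5191 in the mutant. Every mutant library lay below every wild-type library, at 6454 ± 426 against 5085 ± 524 (SD, n = 3 each), a 1.27-fold ratio. The log2 change was -0.35 ± 0.11 with an interval of -0.59 to -0.11 (limma adjusted p = 0.0496). The call did not survive the loss of 1 library, whichever it was (adjusted p from 0.0554 without mutant replicate 2 to 0.181 without wild type replicate 2), nor equal totals (0.0924) or edgeR (0.0603).

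Lss (ENSMUSG00000033105.12, chromosome 10, 76531588 to 76557138), lanosterol synthase, uses the product of Sqle. It had 2130, 2575 and 2868 normalised reads in the wild type and 2102, 2914 and 2898 in the mutant. The lowest library of each genotype was its replicate 1, and the groups overlapped almost fully. The log2 change was 0.06 ± 0.16 (interval -0.29 to 0.41, limma adjusted p = 0.831).

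Srebf2 (ENSMUSG00000022463.7, chromosome 15, 82147181 to 82205379) lies on the chromosome of Sqle but 22.8 Mb away. It had 10716, 10863 and 10255 normalised reads in the wild type and 9473, 12645 and 11282 in the mutant. The mutant libraries spread to both sides of the wild-type range. The log2 change was 0.06 ± 0.11 (interval -0.19 to 0.31, limma adjusted p = 0.752). RNA level does not measure the cutting of the SREBP-2 protein.

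Per kilobase of annotated exon, the wild-type level was highest for Srebf2 at 1477 ± 44.2 normalised reads per kb. Sqle followed at 1164 ± 76.7, Idi1 at 1031 ± 152 and Hmgcs1 at 1002 ± 66.3. Idi1 and Hmgcs1 lay within an SD of each other, and Sqle and Idi1 within the SD of Idi1 only. The levels of Sqle and Hmgcs1 lay further apart than the SD of either. Fdft1 stood at 665.5 ± 8.08, Lss at 234 ± 34.4 and Fdps at 117 ± 13.6 normalised reads per kb, each apart from the next by more than its SD. The length joins all annotated exons of a gene, and the SD does not cover how far it differs from the transcripts present. In the mutant the order of levels was Srebf2 (1549.8 ± 222), Hmgcs1 (939 ± 139), Sqle (917 ± 94.4), Idi1 (792 ± 129), Fdft1 (637 ± 50.1), Lss (245 ± 43) and Fdps (135 ± 27.1). Sqle went from rank 2 to rank 3 and Hmgcs1 from rank 4 to rank 2. In the mutant Sqle and Hmgcs1 lay within an SD of each other, and in the wild type they did not.

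The members deviated together in mutant replicate 1, a pattern seen in the data and not among the planned comparisons. That library had the lowest mutant value for 7 of 7 members and for 16 of the 22 synthesis enzymes (72.7%), where it was the lowest mutant library for 33.6% of all tested genes. The median deviation from the mutant mean there was -0.26 on the log2 scale over the 7 members, against 0.01 over all tested genes. Mutant replicate 2 was the highest mutant library for 6 of 7 members, where it was the highest for 31% of all tested genes. In the wild type no library held the lowest value of more than 3 members. Without mutant replicate 1, the log2 change of Sqle was -0.26 (limma adjusted p = 0.116).

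**Figure D2:**
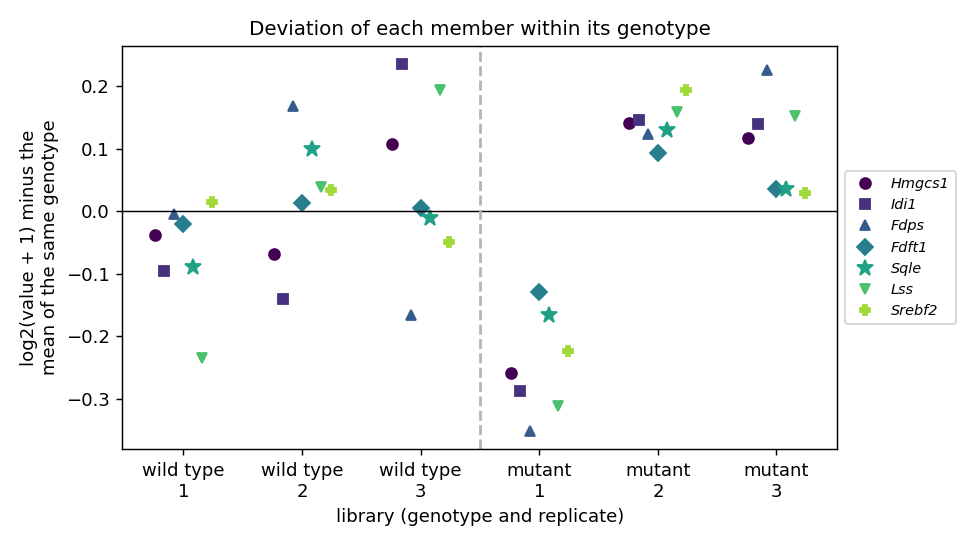
Deviation of each member from the mean of its own genotype, as log2(value + 1) (vertical axis), in the 6 libraries (horizontal axis), 1 symbol per gene. All 7 symbols lie below 0 in mutant replicate 1 and above 0 in mutant replicates 2 and 3, while the lowest wild-type symbol is in replicate 1 for 3 genes and in replicates 2 and 3 for 2 genes each.

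The whole synthesis route was then described with 22 enzyme genes, all of them tested. Acat2 and Sqle fell, 0 rose and 20 did not pass, so that 9.09% were called, against 18.8% of all tested genes. With edgeR, Acat2 alone passed, and with DESeq2 both did. The median log2 change was -0.02, with 12 values below 0 and 10 above. Acat2, whose product joins acetyl-CoA units at the entrance to the route, had 4211, 4577 and 4483 normalised reads in the wild type and 3362, 3491 and 3679.6 in the mutant. Its groups did not overlap (log2 change -0.33 ± 0.10, limma adjusted p = 0.0374), and its call was lost with equal totals and without any 1 library other than mutant replicate 3 (adjusted p up to 0.141).

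Of the enzymes between Hmgcs1 and Idi1, the kinase genes Mvk and Pmvk stood at 0.17 ± 0.16 and -0.33 ± 0.17, and the decarboxylase gene Mvd at 0.16 ± 0.12 on the log2 scale. Idi2, a second isomerase gene beside Idi1, was near silent at 2.12, 2.86 and 10.7 normalised reads in the wild type and 24.3, 13.6 and 23.2 in the mutant. Its log2 change of 1.99 ± 0.68 did not pass (limma adjusted p = 0.0667), and it was called without wild type replicate 3 and with library weights.

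Downstream of Lss, 0 of 10 genes passed in limma, 0 in edgeR and 0 in DESeq2. At an unadjusted p under 0.05, for which no share of all tested genes is given, the count was also 0. Over all tested genes limma called 18.8%, edgeR 18.4% and DESeq2 23.4%. Cyp51, the demethylase of lanosterol, stood at a log2 change of -0.04 ± 0.12, Tm7sf2 and Lbr, both sterol C14 reductases, at -0.14 ± 0.14 and 0.02 ± 0.10, and the C4 methyl oxidase gene Msmo1 at 0.11 ± 0.09. Nsdhl and Hsd17b7, the partner enzymes of C4 demethylation, stood at -0.11 ± 0.18 and -0.0029 ± 0.17. The isomerase gene Ebp stood at -0.12 ± 0.11 and the desaturase gene Sc5d at 0.07 ± 0.10. Dhcr7, which reduces the ring of the sterol late in the route, stood at 0.19 ± 0.13. Of these 9 genes Msmo1 had the narrowest interval (-0.09 to 0.32) and Nsdhl the widest (-0.51 to 0.29).

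**Figure D3:**
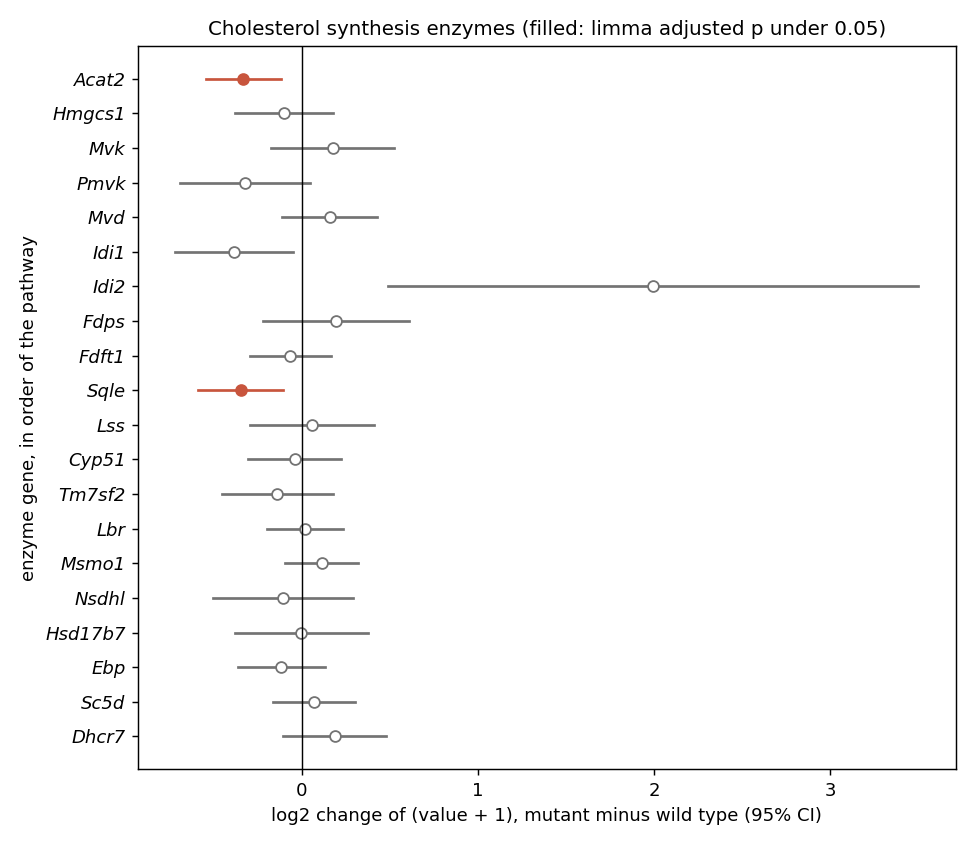
Log2 change of (value + 1), mutant minus wild type, with 95% confidence intervals (horizontal axis) for 20 synthesis enzyme genes in pathway order (vertical axis). Acat2 and Sqle are filled as called, at -0.33 and -0.35, and the other 18 are open, with Idi2 at 1.99 on fewer than 25 normalised reads per library.

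To set Sqle against its pathway, its log2 value was taken relative to the median of the other 21 enzymes in each library. This relative level was 1.44, 1.42 and 1.42 in the wild type and 1.00, 0.95 and 0.91 in the mutant, a difference of -0.47 with no overlap. The gene at the median switched between libraries. In replicate order it was Ebp, Lss and Dhcr7 in the wild type and Idi1, Dhcr7 and Fdft1 in the mutant. The size of the difference depended on the reference. With the mean of the 21 the difference was -0.41, and with each gene first centred on its own mean it was -0.30, both without overlap. With the median of the other 6 members it was -0.13 with overlap, and -0.28 without overlap once they were centred.

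Gene by gene, the ratio of Sqle to another enzyme was lower in all 3 mutant libraries than in all 3 wild-type libraries for 12 of 21 enzymes (57.1%) and higher for 0. Fdft1, Lss, Hmgcs1 and Fdps were among the 12, while Idi1, Acat2, Pmvk and Tm7sf2 were among the 9 that overlapped. The same held for 39.2% of all other tested genes, and for 48.2% of those with a mean of at least 500, so the share among enzymes was near that background. These ratios and relative levels are given as descriptions and were not tested.

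To set Sqle against its position, the 15 tested genes within 1 Mb were examined. Tmem65 fell and 4930544F09Rik rose, both named after their values were seen, and 13 did not pass (13.3% called, against 18.8% of all tested genes). The median log2 change was -0.08, and 3 of the 15 genes had every mutant library below every wild-type library, where 20.3% of all tested genes did. Myc starts 2.65 Mb beyond Sqle.

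The nearest gene towards Myc, Washc5 (a subunit of the WASH complex of endosomes, 0.8 kb away), stood at -0.19 ± 0.12, and Nsmce2, a SUMO ligase gene 43.1 kb away, at -0.08 ± 0.10. Trib1, a pseudokinase gene 317.2 kb away, stood at -0.10 ± 0.47. On the other side, the processed pseudogenes Gm7691 and Gm5045 stood at -0.16 ± 0.45 and -0.18 ± 0.47 and the actin regulator gene Mtss1 (233.1 kb away) at 0.28 ± 0.14. None of these 6 passed, with limma adjusted p from 0.178 to 0.903. Tmem65, 491.4 kb away on the side opposite to Myc, changed by -0.65 ± 0.20 (limma adjusted p = 0.0426), a call lost with equal totals, with edgeR and without any 1 library other than mutant replicate 3 (adjusted p up to 0.129). The antisense RNA 4930544F09Rik lies within Mtss1 on the opposite strand and stood at 5.81 ± 6.16 against 31.6 ± 3.39 normalised reads (limma adjusted p = 0.0275). That call held without wild type replicate 1 and was lost without any other single library (adjusted p up to 0.0825).

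**Figure D4:**
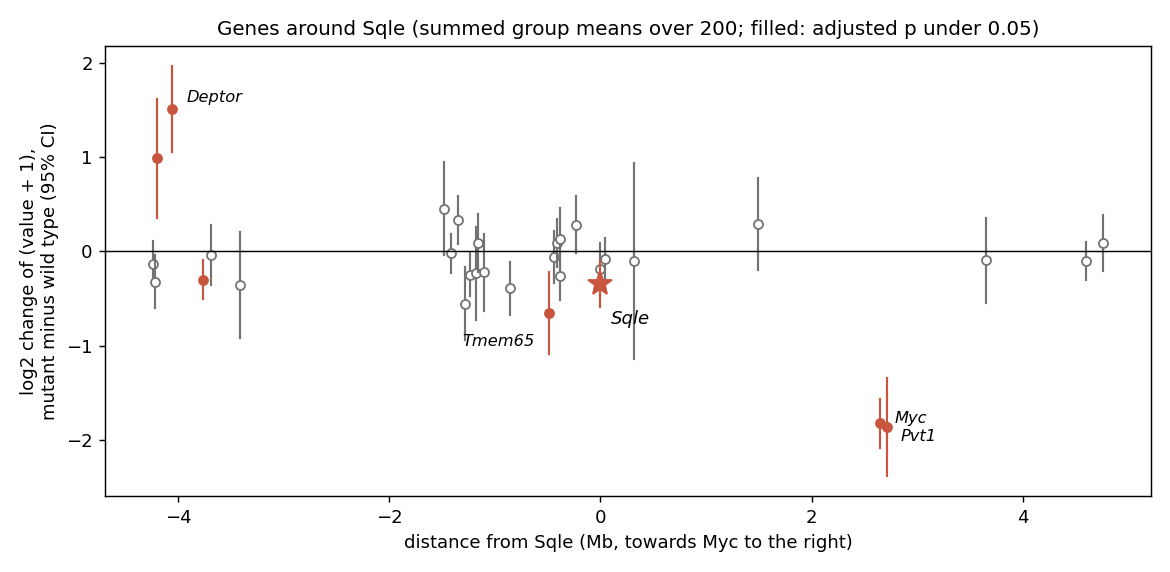
Log2 change of (value + 1), mutant minus wild type, with 95% confidence intervals (vertical axis) against distance from Sqle in Mb (horizontal axis, Myc to the right), for Sqle (star) and 31 tested genes within 5 Mb whose group means sum to over 200 normalised reads. Myc lies at -1.82, Sqle at -0.35, and the gene next to Sqle towards Myc at -0.19 and open.

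Relative to the median of those 15 genes, the log2 value of Sqle was 2.87, 2.9999 and 3.16 in the wild type and 2.38, 2.86 and 2.67 in the mutant, a difference of -0.38 without overlap. With each gene centred first it was -0.31 with overlap. The ratio of Sqle to a neighbour was lower in all 3 mutant libraries for 5 of 15 genes (33.3%), against 39.2% of all other tested genes. Over the whole of chromosome 15, 82 of 624 tested genes fell (13.1%), where 10.9% of all tested genes did, with a median log2 change of -0.03. With centred values, the level of Sqle relative to its pathway and that relative to its neighbours differed by -0.30 and -0.31 between mutant and wild type on the log2 scale, and neither difference was tested.

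By the root-mean-square difference of centred log2 values over the 6 libraries, the genes with the pattern most like that of Sqle among 13381 ranked were Fem1a (0.041), Cpsf1 (0.041), Usp5 (0.047), Luc7l (0.051) and the pseudogene Gm7327 (0.054). Since the ranking used the difference between mutant and wild type in the same 6 libraries, these genes were bound to change by about as much as Sqle, and their changes are given with no test. On the log2 scale the change was -0.36 for Fem1a, -0.36 for Cpsf1, a polyadenylation factor gene that is also on chromosome 15, -0.34 for Usp5, a deubiquitinase gene, -0.34 for the splicing factor gene Luc7l and -0.33 for Gm7327. The synthesis enzyme most like Sqle was Acat2 at rank 52, and Fdft1 stood at rank 1189, Idi1 at rank 1397 and Hmgcs1 at rank 1465. The median rank of the 20 enzymes ranked was 3136.5.

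Genes of cholesterol uptake and transport inside the cell moved in both directions. Of 13 tested, 3 rose and 1 fell (30.8% called, against 18.8% of all tested genes), with a median log2 change of 0.05. Scarb1, the scavenger receptor that takes up cholesterol esters from high-density lipoprotein, had 5387, 5615 and 5676 normalised reads in the wild type and 2977, 3222 and 3386 in the mutant. The groups lay far apart, and Scarb1 fell 1.74-fold (log2 change -0.80 ± 0.10, limma adjusted p = 0.000674, called in 17 of 17 alternatives).

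Gramd1a, which moves cholesterol from the plasma membrane to the endoplasmic reticulum, rose 1.43-fold from 4810.2 ± 439.8 to 6859.6 ± 577 (limma adjusted p = 0.01). Mylip, a ubiquitin ligase gene of sterol uptake control, rose 1.52-fold (0.60 ± 0.17, limma adjusted p = 0.0393), a call that held without wild type replicate 1 or mutant replicate 3 and was lost without each of the other 4 libraries (adjusted p up to 0.133). Npc1, the lysosomal cholesterol exporter, rose 1.37-fold (0.46 ± 0.14, limma adjusted p = 0.0454), a call that held without mutant replicate 3 and was lost without any other library (adjusted p up to 0.136).

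In the list of efflux and esterification 2 of 9 tested genes fell and 0 rose, also by edgeR and DESeq2. The share called by limma was 22.2%, against 18.8% of all tested genes. At an unadjusted p under 0.05, with no share of all tested genes to set beside it, 0 were higher. The median log2 change was -0.04. Apoe, the apolipoprotein that accepts exported cholesterol, had 915, 723 and 725 normalised reads in the wild type and 376, 426 and 436 in the mutant. It fell 1.91-fold without overlap (limma adjusted p = 0.00326, called in 17 of 17 alternatives). Soat1, which esterifies cholesterol for storage, changed by -0.36 ± 0.10 (limma adjusted p = 0.0348), a call that held without wild type replicate 3 and was lost without any other library (adjusted p up to 0.145). Soat2, a second such gene, stood at 0.67 ± 0.33, and Nr1h2, which encodes the sterol sensor LXR beta, at 0.16 ± 0.10, and neither passed.

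Among 14 genes of SREBP processing and sterol sensing 2 fell and 0 rose, also by edgeR and DESeq2. Limma called 14.3% of them, against 18.8% of all tested genes. At an unadjusted p under 0.05, 3 were higher (Sp1, Insig2 and the NF-Y subunit gene Nfyb), with no share of all tested genes to set beside it. The median log2 change was 0.04. Mbtps1, the site-1 protease that makes the first cut of SREBP-2, had 13851, 14592 and 13558 normalised reads in the wild type and 8064, 9673 and 9655 in the mutant, a 1.53-fold fall (limma adjusted p = 0.00257). Scap, the escort of SREBP-2, had 5881, 5739 and 5649.7 normalised reads in the wild type and 4597, 4259 and 4098 in the mutant, a 1.33-fold fall (limma adjusted p = 0.0131, and 0.057 without wild type replicate 2). In both genes the genotypes did not overlap. The transcription factor gene Sp1 stood at 0.26 ± 0.11 and Insig2, which holds SCAP back, at 0.29 ± 0.12, and neither passed (limma adjusted p = 0.112 and 0.127).

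The branches that leave the route before squalene held 4 of 12 tested genes that fell and 0 that rose, also by edgeR and DESeq2. By limma 33.3% were called, against 18.8% of all tested genes. At an unadjusted p under 0.05, with no share of all tested genes to set beside it, 0 were higher. The median log2 change was -0.15. Pdss1, which builds the side chain of ubiquinone, fell 1.6-fold (1193 ± 58.1 to 744.7 ± 34.6, limma adjusted p = 0.00452), and Coq2, the next step towards ubiquinone, 1.29-fold (0.0375). Nus1, a subunit of the dolichol synthase, fell 1.34-fold (limma adjusted p = 0.0433) and Rabggtb, a subunit of Rab geranylgeranyl transferase, 1.29-fold (0.0412). Pdss1 was called in 17 of 17 alternatives. The other calls were lost with equal totals and without most single libraries: Coq2 without any but mutant replicate 1 (adjusted p up to 0.142), Nus1 without any but mutant replicate 2 (up to 0.123) and Rabggtb without any (up to 0.125).

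In fatty acid synthesis, the part of lipid synthesis that SREBP-1 controls, 3 of 16 tested genes fell and 2 rose. The share called was 31.2%, against 18.8% of all tested genes, and the median log2 change was -0.14. Fasn, fatty acid synthase, had 12533, 13655 and 11045 normalised reads in the wild type and 5406, 6583 and 7649 in the mutant. It fell 1.9-fold without overlap (log2 change -0.93 ± 0.14, limma adjusted p = 0.00156). Acaca, the acetyl-CoA carboxylase, fell 1.76-fold (1431 ± 185 to 811 ± 76.8, limma adjusted p = 0.00385) and Acly, which supplies cytosolic acetyl-CoA to both routes, 1.41-fold (limma adjusted p = 0.0128). The elongase gene Elovl6 rose 1.45-fold (limma adjusted p = 0.0085), and Acss2, the acetyl-CoA synthetase, named after its value was seen, rose 1.36-fold (limma adjusted p = 0.0381). Fasn, Acaca, Acly and Elovl6 were called in 17 of 17 alternatives, and the call of Acss2 held without wild type replicate 1 or mutant replicate 3 and was lost without each of the other 4 libraries (adjusted p up to 0.119).

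**Figure D5:**
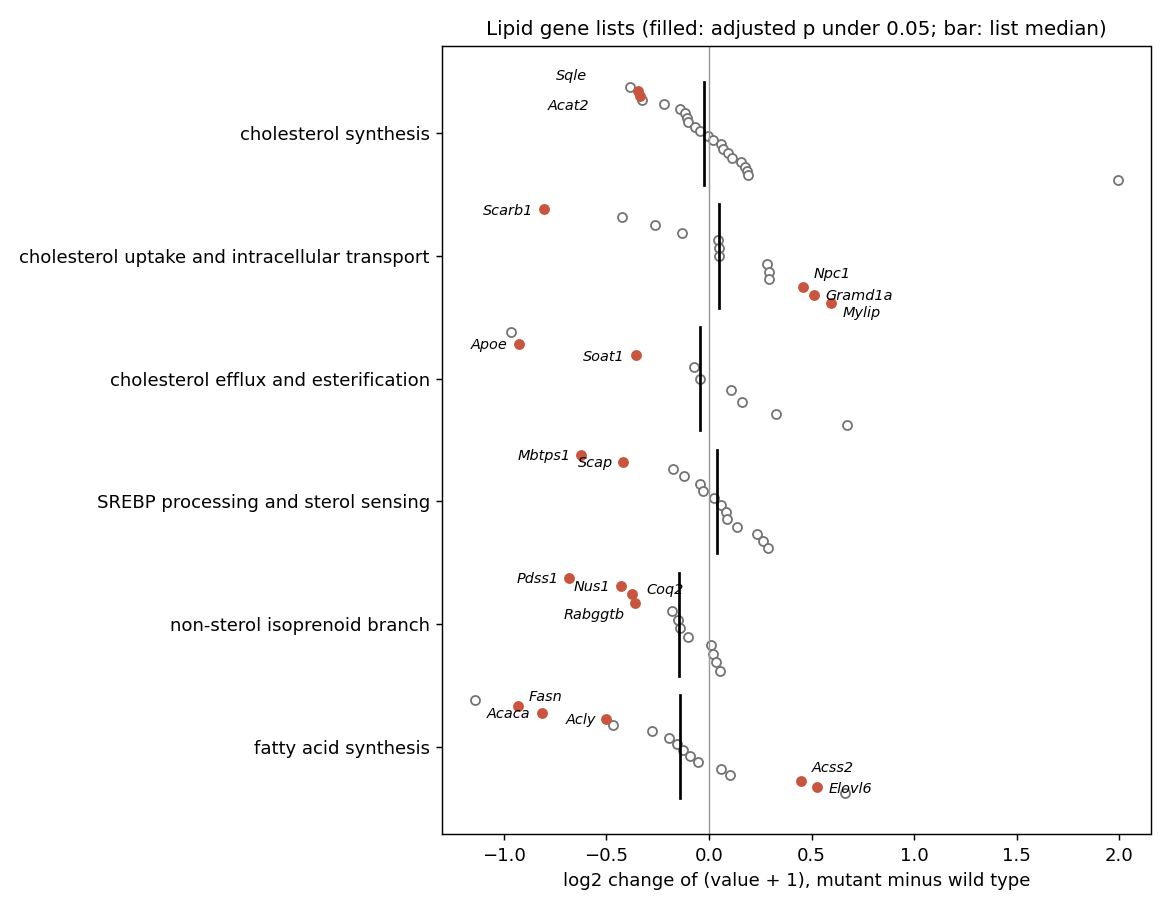
Log2 change of (value + 1), mutant minus wild type (horizontal axis), of every tested gene of the 6 lipid gene lists (vertical axis), with called genes filled and named and the list median as a bar. In the synthesis list 2 of 22 genes are filled, at -0.33 and -0.35, while Scarb1, Apoe, Fasn and Acaca in other lists lie at -0.80 or lower.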

How the data were processed

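RNA sequencing libraries of DN3 thymocytes were prepared with the SMART-Seq v4 and Nextera XT kits, per the labels' protocols. STAR 2.5.3, featureCounts, DESeq2 1.20.0 and the builds mm10 and GRCm38 were used, per the submitters' processing notes. The authors deposited a signal per gene that had been scaled by library. In each library the deposited numbers were whole multiples of one step (100% within 0.1 reads), so whole reads could be recovered. On these, edgeR called 3283 genes and DESeq2 4168. For the annotation release and strand setting: not given in the sources used here.

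Mutant and wild type were compared with limma 3.58.1 in R 4.3.3 (lmFit and trended eBayes) on log2(value + 1), two-sided, for genes whose mean over the 6 libraries was 10 or more, with Benjamini-Hochberg adjustment at 0.05. Errors of changes are standard errors and errors of levels SD. This scale understates changes of low genes. Each called or overlapping state refers to 3 against 3 libraries. Symbols, positions and exon lengths came from GENCODE M21 (21100 of 21135 genes matched). Alternatives were pseudocounts of 0.5 and 8, other filters, scalings and variance models, library weights, a replicate block, edgeR 4.0.16, DESeq2 1.42.0 and leaving out each library. Scripts were tested on simulated counts.

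Named were the 7 members, the synthesis enzymes, up to 4 genes with the smallest p in each other lipid list, the 3 nearest tested genes on each side of Sqle, Myc and the 5 genes most like Sqle. Other genes were chosen after their values were seen. The members and lists were chosen with earlier results of these data known. Some genes of the lists are counted but not reported here by name.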

Additional observations from a re-analysis of the deposited data

How the results depend on the processing

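Sqle kept its direction in all 17 alternatives and its call in 6 of them. The call was lost with a pseudocount of 0.5 (log2 change -0.35, adjusted p = 0.0503), with no filter (-0.35, 0.0551), with equal totals (-0.29, 0.0924), with TMM scaling (-0.34, 0.056) and with edgeR (-0.33, 0.0603), and its change ran from -0.41 to -0.26 when 1 library was left out. In each of these the members called numbered 0, also in every fit without 1 library (0 to 0). Of the 22 synthesis enzymes 1 was called with a pseudocount of 0.5, no filter, TMM scaling or edgeR (Acat2 each time), 0 with equal totals, and 0 to 1 without 1 library. The replicate number as a block called 1 of the 22 (Sqle, adjusted p = 0.0484) and 3066 genes in all. Same-numbered libraries did not deviate together over all tested genes (correlations -0.02, -0.07 and -0.01). These correlations cannot exclude a pairing in the design, and the main fit used none. All genes called numbered 1896 to 2793 without 1 library, the lowest without wild type replicate 2. The relative level of Sqle against the other enzymes changed by -0.41 with their mean, by -0.13 with the other 6 members and by -0.30 with each enzyme centred, the last chosen after seeing the data. Of 59 other named genes, 42 kept their side of the threshold in every alternative that gave a value, and 0 called genes changed sign. Among members that did not pass, Hmgcs1 (-0.17 to 0.03), Lss (-0.06 to 0.21) and Srebf2 (-0.04 to 0.17) took either sign. With 3 libraries a group, the call of Sqle lay at the edge of the threshold (limma adjusted p = 0.0496 in the main fit).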

Other observations

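Some pathway genes outside the 7 members also varied between the mutant libraries, and others varied little. Mutant replicate 1 was the highest mutant library for 4 of the 22 synthesis enzymes (18.2%), against 37% of all tested genes. The genes given here were chosen after their values were seen. Insig1, an SREBP-2 target whose product restrains SCAP, had 1050.1 normalised reads in mutant replicate 1 against 1721 and 1959 in the other mutant libraries, and 1576, 1359 and 1395 in the wild type (log2 change 0.08 ± 0.21, limma adjusted p = 0.816). Msmo1, a synthesis enzyme gene, deviated from the mutant mean by 0.01 on the log2 scale in that library, and Nsdhl had 1237 normalised reads there against 2041 and 1825 in the other mutant libraries.

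Of the genes in the 6 lipid lists, 5 lie on chromosome 15, namely Sqle, Soat2, Srebf2, Rnf139 and Sp1. Rnf139, a sterol-sensing ubiquitin ligase gene, lies 408 kb from Sqle on the side away from Myc, and its log2 change was 0.09 ± 0.11 (limma adjusted p = 0.63). Of the 5, Sqle was the 1 that passed the test.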
